A study of Mus musculus with 2 samples.

Results

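The insulin-like growth factor (IGF) ligands, their receptor and their binding proteins were followed by single-cell RNA sequencing in the dermis of healed mouse skin wounds. The 9 genes were taken by symbol from the 27998 genes of the count tables, and were chosen with earlier results of these data known. They are the ligands Igf1 and Igf2, the receptor Igf1r, and 6 binding proteins, Igfbp2, Igfbp3, Igfbp4, Igfbp5, Igfbp6 and Igfbp7. Igfbp1 is not among them and had too few counts for a comparison in fibroblasts. IGF1 and IGF2 signal through the receptor tyrosine kinase encoded by Igf1r, and Igf2r removes IGF2 from the cell surface. Secreted IGFBPs bind the ligands in the extracellular space and either keep them from the receptor or carry them to it, while IGFBP7 binds them only weakly. Proteases such as PAPP-A and the HTRA family cut IGFBPs and release the ligand. In skin, IGF1 made by dermal cells acts on the epidermis and the hair follicle.

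The study asked how activation of the Hedgehog (Hh) pathway in wound dermis changes its cells. Both genotypes carried SM22rtTA and tetO-Cre, in which the SM22α (Tagln) promoter, active in smooth muscle and wound myofibroblasts, drives the doxycycline-dependent activator of Cre. Control mice (SM22rtTA; tetO-Cre; R26-Tomato) gained the red reporter Tomato, and SM22-SmoM2 mice (SM22rtTA; tetO-Cre; R26-SmoM2/Tomato) also gained SmoM2, a constitutively active form of Smoothened. Mice were 4 to 5 weeks old and received chow with doxycycline (20 g/kg) from day 1 after wounding. Small wounds were collected 3 days after complete re-epithelialization. Tomato+ dermal cells were sorted, with the wounds of several mice pooled into 1 library per genotype. With 1 library per condition there were no replicates and no test between conditions was possible. All intervals below are 95% intervals that cover counting error only.

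After filtering, 2856 control cells and 1792 SM22-SmoM2 cells remained, with a median of 8607.5 and 8837.5 unique molecular identifiers (UMIs, 1 per captured transcript molecule) per cell. Marker genes gave clusters their names, each with the suffix -like, which is dropped below: endothelial, fibroblast, immune, keratinocyte, muscle (mural) and Schwann. Keratinocytes, 15 from the control and 1 from the SM22-SmoM2 library, were too few to compare. The control library held 1095 fibroblasts, 699 endothelial cells, 675 Schwann cells, 272 muscle cells and 91 immune cells. The SM22-SmoM2 library held 1099, 270, 294, 94 and 33 of them. All 7 fibroblast markers were above 10 UMIs per 1000000 UMIs of the class (CPM) in fibroblasts of either genotype. The sex of a cell was called from Xist and Y-linked UMIs, and the male share of the fibroblasts with a call was 74.5% (control) and 94.4% (SM22-SmoM2). In the clustering of all cells, clusters 9, 4 and 6 held 33.8%, 26.2% and 24.7% of control fibroblasts. SM22-SmoM2 fibroblasts lay mainly in clusters 12, 7, 1 and 9, at 26.2%, 22.3%, 17.7% and 14.3%. The clustering was made without the 9 genes and without the other IGF and Hh genes. The targets of the pathway separated the libraries, since fibroblast Ptch1, the Hh receptor and a direct target, was at 12.1 CPM in control cells against 147 CPM in SM22-SmoM2 cells. Smo itself was at 52.1 and 57.1 CPM, and the counts do not tell the transgene from the endogenous transcript.

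In fibroblasts, 3 of the 9 genes were past 2-fold higher in the SM22-SmoM2 library and none was past 2-fold lower. The 3 were Igfbp4, Igf2 and Igfbp3. A gene counted as past 2-fold with at least 50 UMIs over both libraries and a log2 ratio of CPM of at least 1 or at most -1, and all 9 genes passed the UMI minimum. Of the 11535 genes with 50 UMIs, 5.0% were past 2-fold higher, 4.98% past 2-fold lower and 9.99% in either direction. At 1.5-fold, 5 of the 9 genes passed beside 24.0% of all genes. The median log2 ratio of the 9 genes was 0.34 beside -0.06 over all 11535.

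Igfbp4 had the largest ratio of the 9. Its protein binds both ligands and mostly withholds them until PAPP-A cuts it. Fibroblast Igfbp4 was at 639 CPM (626 to 652) in control cells and rose to 2687 CPM (2659 to 2716) in SM22-SmoM2 cells. The intervals did not overlap, and the log2 ratio was 2.07 (2.04 to 2.11), a 4.21-fold higher level. Igfbp4 (ENSMUSG00000017493) lies on chromosome 11 at 99041244 to 99054392 on the plus strand of GRCm38. Its promoter is shown because it is the member with the largest ratio, and the promoters of Igfbp2 and Igfbp5 because these neighbours on chromosome 1 were both below their control level. Each line gives the 250 bases before the RefSeq start (GRCm38.p6), 5′ to 3′ on the strand of the gene, at chr11:99040994-99041243 (plus), chr1:72824230-72824479 (plus) and chr1:72874866-72875115 (minus). Capitals mark matches to TATAAA or to the GC box GGGCGG on either strand.
Igfbp4: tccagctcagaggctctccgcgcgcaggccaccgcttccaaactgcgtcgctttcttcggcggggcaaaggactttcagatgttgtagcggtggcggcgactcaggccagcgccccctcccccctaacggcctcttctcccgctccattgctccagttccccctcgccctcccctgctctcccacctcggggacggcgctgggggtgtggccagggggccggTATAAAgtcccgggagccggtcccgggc
Igfbp2: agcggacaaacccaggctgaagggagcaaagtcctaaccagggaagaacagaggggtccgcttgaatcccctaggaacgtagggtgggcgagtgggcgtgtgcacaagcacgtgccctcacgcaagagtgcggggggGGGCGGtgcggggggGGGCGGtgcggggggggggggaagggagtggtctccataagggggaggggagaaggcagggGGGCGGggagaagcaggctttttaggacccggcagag
Igfbp5: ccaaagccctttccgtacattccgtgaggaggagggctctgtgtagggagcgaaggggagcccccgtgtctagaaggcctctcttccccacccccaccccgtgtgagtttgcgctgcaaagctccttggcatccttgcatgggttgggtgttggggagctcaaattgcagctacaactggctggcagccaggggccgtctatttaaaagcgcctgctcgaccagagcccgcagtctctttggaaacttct
The Igfbp4 window held 1 TATAAA that began 28 bases before the start, the Igfbp2 window held 3 GC boxes, and the Igfbp5 window held neither motif. RefSeq listed 13 promoters for the 9 genes. TATAAA was in those of Igfbp4 and Igfbp6 and in 12.4% of all 32851 promoters, and GGGCGG was in those of Igf1r, Igf2, Igfbp2 and Igfbp7 and in 32.7% of all. The GLI core motif GACCACCCA, or its reverse TGGGTGGTC, was in 0 of the 13 and in 0.225% of all.

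The ligands differed in level and in ratio. Igf1 (ENSMUSG00000020053, chromosome 10, 87858265 to 87937042, plus strand) was at 458 CPM (447 to 470) in control fibroblasts and 426 CPM (415 to 438) in SM22-SmoM2 fibroblasts, a log2 ratio of -0.11 (-0.16 to -0.05). Igf2 (ENSMUSG00000048583, chromosome 7, 142650766 to 142666816, minus strand) was scarce. Its 53 control UMIs gave 3.74 CPM (2.80 to 4.89) and its 141 SM22-SmoM2 UMIs gave 11.3 CPM (9.5 to 13.3), a log2 ratio of 1.59 (1.13 to 2.08). These Igf2 UMIs came from 28 control and 51 SM22-SmoM2 cells, and the 10 highest cells held 58.5% and 44.7% of them. The 2-fold call of Igf2 rests on a single fibroblast sub-cluster, described below. H19, the noncoding RNA that shares the imprinted locus with Igf2, was at 367 CPM (357 to 377) and 360 CPM (349 to 370), with a log2 ratio of -0.03 (-0.09 to 0.03). Igf1 overlaps Igf1os on the opposite strand, and Igf2 overlaps Gm49394 and Mir483 on its own strand and Igf2os on the other. The strand setting of the counting is not given in the sources used here, so reads of such overlapping genes cannot be told apart.

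The receptor gene Igf1r (ENSMUSG00000005533, chromosome 7, 67952827 to 68233668, plus strand) was at 25.3 CPM (22.8 to 28.1) in control against 32.1 CPM (29.0 to 35.4) in SM22-SmoM2 fibroblasts. Its log2 ratio was 0.34 (0.13 to 0.55). Igf2r, the clearance receptor, was at 74.7 and 56.6 CPM, a log2 ratio of -0.40 (-0.54 to -0.26). Insr, the insulin receptor, was at 8.54 and 8.72 CPM, a log2 ratio of 0.03 (-0.36 to 0.42).

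The other binding proteins moved in both directions. Igfbp3, the main IGF carrier in serum (ENSMUSG00000020427, chromosome 11, 7206086 to 7213923, minus strand), was at 79.6 CPM (75.0 to 84.4) in control against 175 CPM (168 to 183) in SM22-SmoM2 fibroblasts, a log2 ratio of 1.14 (1.03 to 1.24). Igfbp7 (ENSMUSG00000036256, chromosome 5, 77349240 to 77408041, minus strand) was at 1749 CPM (1728 to 1771) and 3140 CPM (3109 to 3171), a log2 ratio of 0.84 (0.82 to 0.87). Igfbp7 overlaps Polr2b and Gm34648 on the opposite strand. Levels of both were above the control, and only Igfbp3 passed 2-fold. The Igfbp3 call was lost under the first version of the naming rules (0.91), after thinning to 1500 UMIs (just under 1) and in the shared sub-clusters described below.

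Igfbp2, Igfbp5 and Igfbp6 were lower without passing 2-fold. Igfbp2 (ENSMUSG00000039323, chromosome 1, 72824503 to 72852474, plus strand) was at 357 CPM (348 to 367) in control against 240 CPM (232 to 249) in SM22-SmoM2 fibroblasts, a log2 ratio of -0.57 (-0.64 to -0.51). Igfbp5, a binding protein that adheres to extracellular matrix (ENSMUSG00000026185, chromosome 1, 72857932 to 72874884, minus strand), was at 311 CPM (302 to 321) and 159 CPM (152 to 167). Its log2 ratio of -0.97 (-1.04 to -0.89) lay just inside the threshold, and it was past 2-fold lower under the first version of the naming rules (-1.04), with the mean of per-cell CPM (-1.15) and after thinning to 1500 UMIs (-1.43). Igfbp2 and Igfbp5 are convergent neighbours with 5457 bases between their ends. Igfbp6, which prefers IGF2 (ENSMUSG00000023046, chromosome 15, 102144362 to 102149511, plus strand), was at 1113 CPM (1095 to 1130) and 761 CPM (746 to 776), a log2 ratio of -0.55 (-0.59 to -0.51).

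**Figure D1:**
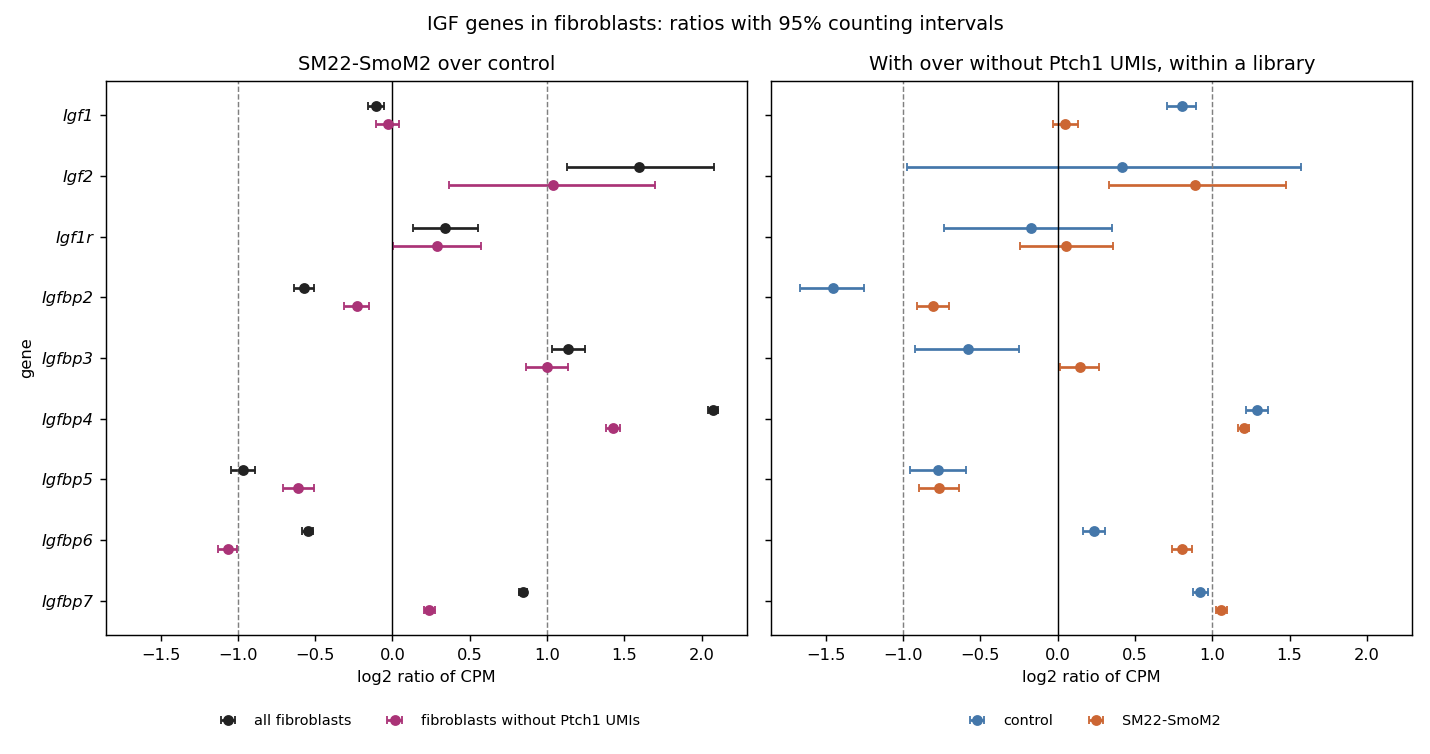
Log2 ratios of CPM for the 9 genes in fibroblasts, with 95% counting intervals and dashed lines at 2-fold. The left panel compares the SM22-SmoM2 with the control library, over all fibroblasts (black) and over those without Ptch1 UMIs (purple). The right panel compares cells with and without Ptch1 UMIs within each library. Igfbp4 lies to the right of 1 in all 4 comparisons, at 2.07, 1.43, 1.29 and 1.20.

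The ratios of several binding proteins differed in size, and that of Igfbp7 in direction, between male and female cells. The libraries held these cells in unequal shares, and the difference was not tested. In male fibroblasts (646 control and 816 SM22-SmoM2 cells), Igfbp2 was at 240 and 233 CPM, a log2 ratio of -0.04 (-0.12 to 0.05). In female fibroblasts (221 and 48 cells) it was at 831 and 125 CPM, a log2 ratio of -2.73 (-3.13 to -2.35). Among male cells the interval for Igfbp2 thus included 0. Igfbp6 had a log2 ratio of -0.71 in male and 0.14 (-0.10 to 0.38) in female cells. Igfbp7 was higher in male cells, at 1.00 (0.97 to 1.03), and lower in female cells, at -0.16 (-0.27 to -0.05). Igfbp4 was higher in both sexes, at 2.07 in male and 2.67 in female cells, as was Igfbp3, at 1.34 and 1.52. Igfbp5 was lower in both, at -1.06 and -1.87. How many mice of each sex the libraries pooled is not given in the labels, and sex and mouse cannot be told apart.

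Fibroblasts were divided into 15 sub-clusters, of which 1 was left out as mixed with muscle. The levels of the 9 genes varied among the sub-clusters of each library. Among the 9 control sub-clusters with at least 20 cells, Igfbp4 ranged from 101 CPM in sub-cluster 0 (led by Crabp1, Prss35 and Igfbp2 itself) to 2223 CPM in sub-cluster 12 (led by C4b, Mmp3 and Apoe). Among the 9 SM22-SmoM2 sub-clusters it ranged from 143 CPM in sub-cluster 0 to 5316 CPM in sub-cluster 2 (led by Penk, Mest and Lepr). The lowest Igfbp4 of either library was thus in the same sub-cluster.

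Other members had their highest level elsewhere. Igfbp7 was highest in sub-cluster 10 (led by Sfrp5, Cldn1 and Wfdc1), at 6431 CPM in control against 8137 CPM in SM22-SmoM2 cells. Igfbp6 was highest there too, at 4427 and 3727 CPM, and SM22-SmoM2 Igf2 reached 71.5 CPM in it. This Igf2 level rests on 60 UMIs over the 72 SM22-SmoM2 cells of the sub-cluster, and none was counted in its 36 control cells. The 60 were part of the 141 Igf2 UMIs behind the 2-fold call over all fibroblasts. By these counts, Igf2 in the remaining fibroblasts was still higher in the SM22-SmoM2 library but short of 2-fold. The 2-fold call of Igf2 thus rests on this sub-cluster. No interval was computed for the remaining fibroblasts. Igfbp2 was highest in sub-cluster 0, at 916 and 678 CPM, and 0 UMIs of it were counted in control sub-cluster 11 (led by Fbln7, Eln and Angptl1).

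Igfbp5 and Igf1 marked other control sub-clusters. Igfbp5 was at 995 CPM in control sub-cluster 11, while in the SM22-SmoM2 sub-clusters 1 and 7, both led by Egfl6, it was at 3.81 and 17.0 CPM. Igf1 reached 1763 CPM in control sub-cluster 13 (led by Trf, Cst6 and Thbs4) and was lowest, at 93.4 CPM, in SM22-SmoM2 sub-cluster 1. Igf1r varied least, from 12.4 to 32.1 CPM in control and from 24.8 to 73.5 CPM in SM22-SmoM2 sub-clusters.

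**Figure D2:**
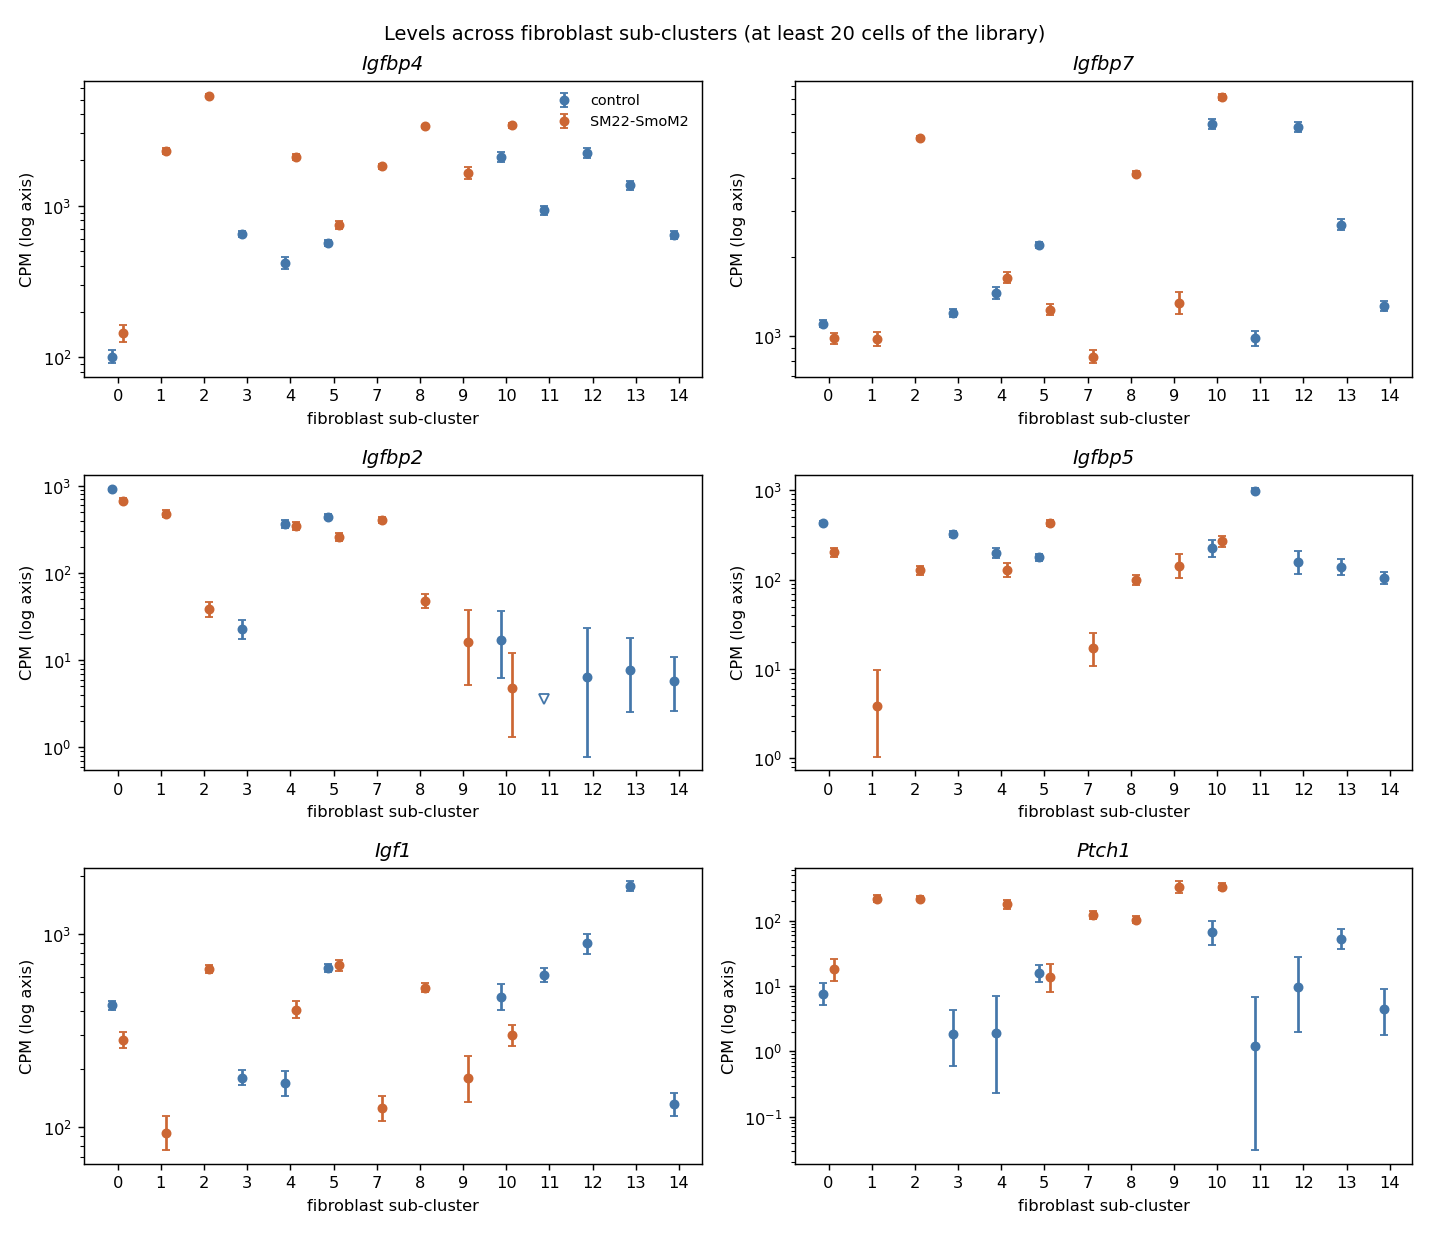
CPM of Igfbp4, Igfbp7, Igfbp2, Igfbp5, Igf1 and Ptch1 (log axis) in each fibroblast sub-cluster with at least 20 cells of the library, control in blue and SM22-SmoM2 in orange, with 95% counting intervals. Open triangles mark the level of 3 UMIs where none was counted. Igfbp4 spans 101 to 5316 CPM, and Igfbp2 is at 916 and 678 CPM in sub-cluster 0 and under 20 CPM in sub-clusters 9 to 14.

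Only sub-clusters 0, 4 and 5 held at least 50 cells of each library, with 52.5% of control and 28.0% of SM22-SmoM2 fibroblasts. Within them the ratios differed from those over all fibroblasts. Igfbp4 was higher in SM22-SmoM2 cells in all 3, with log2 ratios of 0.50 (0.26 to 0.75), 2.33 (2.18 to 2.48) and 0.40 (0.28 to 0.51) in sub-clusters 0, 4 and 5. It passed 2-fold only in sub-cluster 4, which was led by cell cycle genes and where control Igfbp4 was at 418 CPM and SM22-SmoM2 Igfbp4 at 2095 CPM. The 3 also differed in Ptch1, which in sub-cluster 4 was at 1.93 CPM (2 UMIs) in control and 180 CPM in SM22-SmoM2 cells. Ptch1 was at 7.68 and 18.2 CPM in sub-cluster 0 and at 15.8 and 13.6 CPM in sub-cluster 5. Whether the Igfbp4 ratios go with Ptch1 or with the cell cycle was not tested. Of all genes with 50 UMIs, 4.18% passed 2-fold in sub-cluster 0 (1.51% higher and 2.67% lower), 9.62% in sub-cluster 4 (3.74% and 5.88%) and 3.59% in sub-cluster 5 (1.4% and 2.18%).

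Igfbp2 was below its control level in all 3, with log2 ratios of -0.43 (-0.54 to -0.33), -0.09 (-0.30 to 0.13) and -0.77 (-0.94 to -0.59), of which the interval in sub-cluster 4 included 0. Igf2 had too few UMIs for a call there, with 1, 0 and 7 UMIs in control and 2, 10 and 26 UMIs in SM22-SmoM2 cells. Other binding proteins differed in direction among the 3. Igfbp5 was lower in sub-cluster 0, at -1.10 (-1.28 to -0.93), and higher in sub-cluster 5, at 1.27 (1.09 to 1.44). Igfbp7 had log2 ratios of -0.19, 0.20 and -0.82, so that its higher level over all fibroblasts was not seen in sub-clusters 0 and 5. Igfbp3 was at -0.59, 1.62 and 0.51. Over the 3 sub-clusters pooled, Igfbp4 had a log2 ratio of 1.41, Igfbp2 of -0.56, Igfbp3 of 0.16 and Igfbp7 of -0.33. There 1 of 8 members with enough UMIs passed 2-fold, beside 3.4% of 9706 genes, and Igf2, with 46 UMIs, was at 3.21.

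Fibroblasts were next split by the presence of a Ptch1 UMI. At least 1 was counted in 108 of 1095 control fibroblasts (9.86%, exact interval 8.16 to 11.8%) and in 640 of 1099 SM22-SmoM2 fibroblasts (58.2%, 55.2 to 61.2%), at median depths of 12465 and 10954 UMIs. Endothelial cells held a Ptch1 UMI in 14.7% of control and 14.8% of SM22-SmoM2 cells, at median depths of 9392 and 7262.5 UMIs, and Schwann cells in 8.59% and 10.5%. With every cell thinned to 1500 UMIs, a Ptch1 UMI remained in 2.10% of control and 18.9% of SM22-SmoM2 fibroblasts, beside 2.15% and 4.44% of endothelial cells. The control share in fibroblasts was below that of endothelial cells at full depth and close to it after thinning. Within control fibroblasts Ptch1 was uneven, at 67.5 CPM (43.2 to 100) in sub-cluster 10 and 1.82 CPM (0.59 to 4.24) in sub-cluster 3. Gli1, another Hh target, was at 4.32, 16.6, 20.2 and 36.3 CPM in control fibroblasts with 0, 1, 2 and at least 3 Ptch1 UMIs, on 55, 15, 6 and 9 UMIs. Free RNA as a source of part of these Ptch1 UMIs was not tested. Median depths with and without Ptch1 UMIs were 11298 and 10218 UMIs in SM22-SmoM2 fibroblasts and 12888 and 12458 UMIs in control fibroblasts.

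Within the SM22-SmoM2 library, Igfbp4 and Igfbp7 were past 2-fold higher in fibroblasts with Ptch1 UMIs, and none of the 9 genes was past 2-fold lower. Of 10048 genes, 3.53% were past 2-fold higher, 2.02% lower and 5.55% in either direction, and the median log2 ratio over all of them was 0.13. At 1.5-fold, 6 members passed here beside 17.2% of genes, and 5 in the control split beside 17.7%. Igfbp4 was at 1496 CPM (1462 to 1531) without and 3444 CPM (3402 to 3486) with Ptch1 UMIs, a log2 ratio of 1.20 (1.17 to 1.24). Igfbp7 was at 1889 CPM (1850 to 1928) and 3934 CPM (3890 to 3979), a log2 ratio of 1.06 (1.02 to 1.09). Relative to the median gene, Igfbp7 no longer passed 2-fold.

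Other members were nearer to 0 or below it. Igf2 had a log2 ratio of 0.89 (0.33 to 1.48) and Igfbp6 of 0.80 (0.74 to 0.87). Igfbp2 was at 325 CPM without and 186 CPM with Ptch1 UMIs, a log2 ratio of -0.81 (-0.91 to -0.70), and Igfbp5 at 213 and 125 CPM, a log2 ratio of -0.77 (-0.90 to -0.64). Igf1, Igf1r and Igfbp3 had log2 ratios of 0.05, 0.06 and 0.14. The level rose with the number of Ptch1 UMIs in a cell for Igfbp7, from 1889 CPM at 0 to 3031, 3626 and 4581 CPM at 1, 2 and at least 3. Igfbp4 was at 1496, 2852, 3723 and 3682 CPM at the same steps.

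The size of this difference changed with the depth of the cells and their sub-cluster. In fibroblasts above the median depth, 4 members passed 2-fold beside 6.89% of 9131 genes, and in those at or below it none did beside 4.16% of 6874 genes. When every cell was thinned to 3000 UMIs before Ptch1 was called, none passed beside 2.82% of 6269 genes. Within the 4 SM22-SmoM2 sub-clusters with at least 20 cells on each side (numbers 1, 2, 7 and 8), the log2 ratio of Igfbp4 ran from -0.43 to 0.48. Its interval was above 0 in 2 of them and below 0 in 1. Igfbp7 ran from -0.50 to 0.32, with the interval above 0 in 3 and below 0 in 1. Neither gene passed 2-fold within any of the 4. Igfbp2 and Igfbp5, lower with Ptch1 UMIs over all SM22-SmoM2 fibroblasts, each had the interval above 0 in 2 of the 4 and below 0 in none. Igfbp2 ran from -0.19 to 1.48 and Igfbp5, which had too few UMIs for a ratio in sub-cluster 1, from -0.55 to 1.43. Across the 9 SM22-SmoM2 sub-clusters, log2 CPM of Igfbp4 and Ptch1 had a Pearson r of 0.78, and across the 9 control sub-clusters of 0.47. In the SM22-SmoM2 library this was the highest of the 9 genes, followed by Igfbp7 at 0.42, and Igfbp2 was lowest at -0.59. In the control library Igfbp7 (0.71), Igf1 (0.60) and Igfbp6 (0.48) were above Igfbp4, and Igf1r was lowest at -0.70. These points share a library, and sub-clusters with fewer UMIs give less exact levels.

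In control fibroblasts, Igfbp4 was at 557 CPM without and 1360 CPM with Ptch1 UMIs, a log2 ratio of 1.29 (1.22 to 1.36), and Igfbp2 at 382 and 139 CPM, a log2 ratio of -1.45 (-1.66 to -1.25). These 2 were the members past 2-fold, beside 2.57% of 10267 genes higher, 3.68% lower and 6.25% in either direction. The Igfbp2 call was lost in male control fibroblasts alone (57 with and 589 without Ptch1 UMIs). It was kept in female cells alone (31 and 190). Igfbp4 was past 2-fold higher in either sex. Between libraries, fibroblasts without Ptch1 UMIs still differed. Igfbp4 had a log2 ratio of 1.43 (1.38 to 1.47) and Igf2 of 1.04 (0.37 to 1.70), while Igfbp6 was past 2-fold lower, at -1.06 (-1.13 to -1.0), beside 3.19% of 10672 genes higher, 4.91% lower and 8.1% in either direction. A cell without a Ptch1 UMI is not a cell without Ptch1 transcripts at this depth.

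A sub-cluster of 46 SM22-SmoM2 cells raised all 12 markers fixed for the second group of Hh-active fibroblasts, such as Rspo3, Bmp4 and Fgf10, and is called Hh-active II-like. Its cells were shallow, with a median of 4530.5 UMIs, and 6 of 7 fibroblast markers and 4 of 5 muscle markers reached 10 CPM in them. In SM22-SmoM2 muscle cells 6 fibroblast markers reached 10 CPM too. Summed fibroblast markers were at 7228 CPM, beside 33703 CPM in all SM22-SmoM2 fibroblasts and 5843 CPM in muscle cells. Summed muscle markers were at 364, 239 and 10426 CPM in the same order. Cluster 14, also led by Ibsp and Rspo3, scored highest for muscle, and the Hh-active II rule named it fibroblast. Igf1r was at 73.5 CPM (46.6 to 110) in the 46 cells and 31.0 CPM (28.0 to 34.3) in the other SM22-SmoM2 fibroblasts. Its log2 ratio of 1.24 (0.57 to 1.85) rests on 23 UMIs. Igfbp2 (5 UMIs), Igfbp6, Igf1 and Igfbp7 were past 2-fold lower, at -3.94, -2.64, -1.27 and -1.25. No UMI of Igf2 or H19 was counted, and the floor of 3 UMIs placed H19 at least 38.5-fold lower. In this comparison 21.5% of 10048 genes were past 2-fold higher, 9.68% lower and 31.2% in either direction, and the median gene was at 0.24. SM22-SmoM2 sub-clusters 1 and 7 held no Igf2 UMI either, with H19 at 5.72 and 10.4 CPM. Igfbp6 was at 49.6 and 38.5 CPM there and 125 CPM in the 46 cells. In the same order, Igf1 was at 93.4, 125 and 179 CPM and Igfbp7 at 970, 833 and 1338 CPM. Low levels of these genes were thus not particular to the 46 cells. Igfbp2 was at 479, 404 and 16.0 CPM, and at 4.77 CPM in SM22-SmoM2 sub-cluster 10.

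Across lineages, Igf1, Igf2, Igfbp2, Igfbp4 and Igfbp6 were highest in fibroblasts in both libraries, although for Igf2 the intervals of fibroblasts overlapped those of muscle cells in the control and immune cells in the SM22-SmoM2 library. Fibroblasts held 90.1% and 95.7% of the Igf1 UMIs of the control and SM22-SmoM2 libraries and 98.2% and 97.9% of those of Igfbp2, with 47.1% and 70.1% of all UMIs. Igfbp4 was second highest in endothelial cells of the control library, at 268 CPM, and in immune cells of the SM22-SmoM2 library, at 807 CPM.

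Igfbp7 and Igfbp3 were highest in endothelial cells. Igfbp7, which is known from vascular endothelium, was at 9944 CPM (9875 to 10012) in control against 10505 CPM (10375 to 10636) in SM22-SmoM2 endothelial cells, and at 7209 and 7276 CPM in muscle cells. Igfbp3 was at 312 and 270 CPM in endothelial cells, and among the 3 endothelial clusters it was at 687 CPM in cluster 2 and 45.6 CPM in cluster 15. Igf1r was spread more evenly, from 22.2 to 44.0 CPM over the 5 lineages of the control library. The intervals of neighbours in that order overlapped except those of Schwann cells and fibroblasts, and in the SM22-SmoM2 library all did. Insr was highest in endothelial cells, at 50.6 and 66.9 CPM.

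Igfbp5 had its second site in muscle cells. It was at 284 CPM (261 to 309) in control muscle cells, where its interval overlapped that of fibroblasts, and at 213 CPM (176 to 256) in SM22-SmoM2 muscle cells, above fibroblasts. Igf1 was second highest in immune cells, at 110 and 306 CPM. Igfbp6 was also second highest in immune cells, at 186 and 161 CPM. Of its 59 UMIs in SM22-SmoM2 immune cells, 45 came from a single cell. Without that cell the level was 40.2 CPM, so the second place in that library rests on it. In control immune cells the 10 highest cells held 95.4% of the Igfbp6 UMIs.

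**Figure D3:**
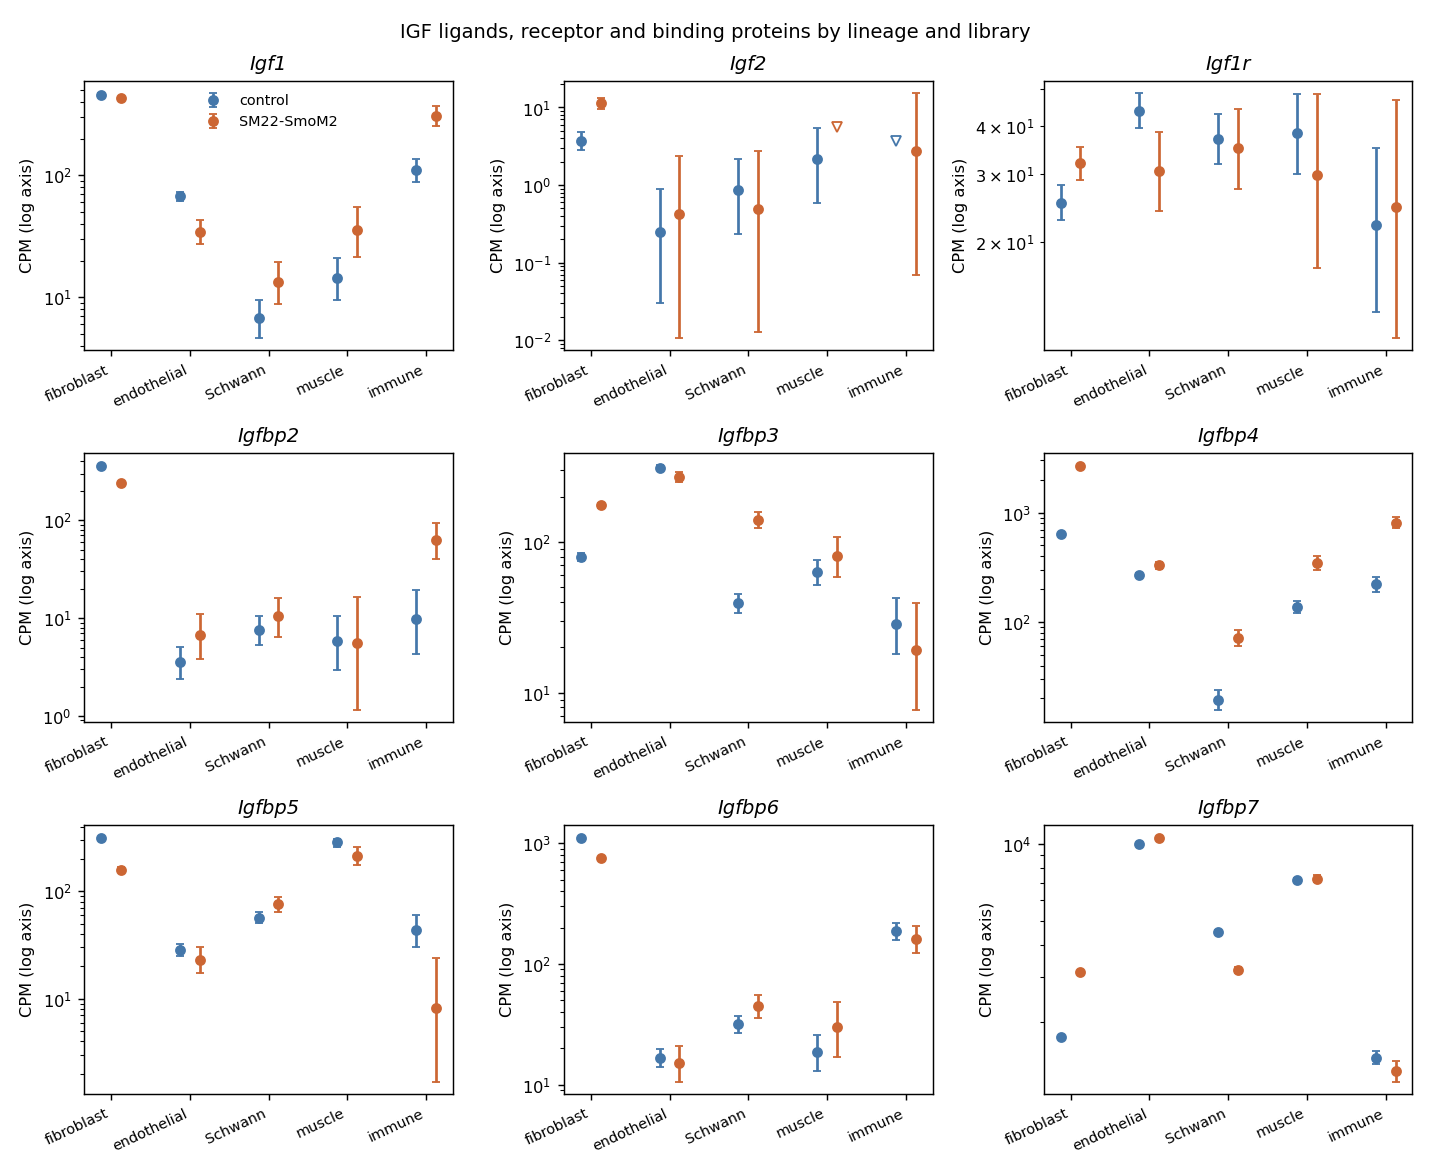
CPM of each of the 9 genes (log axis) in 5 lineages of the control (blue) and SM22-SmoM2 (orange) libraries, with 95% counting intervals. Open triangles mark the level of 3 UMIs where none was counted. Igfbp7 is highest in endothelial cells at 9944 and 10505 CPM, and Igfbp4 is highest in fibroblasts at 639 and 2687 CPM.

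Outside fibroblasts, fewer members had 50 UMIs. In endothelial cells none of the 7 members with 50 UMIs passed 2-fold, beside 2.19% of 9938 genes (0.724% higher and 1.47% lower) and, at 1.5-fold, 1 member beside 9.5%, and the nearest was Igf1, at 67.3 CPM (61.7 to 73.1) in control against 34.5 CPM (27.4 to 42.8) in SM22-SmoM2 cells. In Schwann cells 2 of 8 were past 2-fold higher, beside 1.15% of 8604 genes higher, 1.84% lower and 2.99% in either direction. They were Igfbp3, at 39.1 and 140 CPM with a log2 ratio of 1.84 (1.57 to 2.12), and Igfbp4, at 19.5 and 71.8 CPM with a log2 ratio of 1.88 (1.49 to 2.27). The 10 highest SM22-SmoM2 Schwann cells held 63.3% of the Igfbp3 and 51.0% of the Igfbp4 UMIs.

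In muscle cells 1 of 6, Igfbp4, was past 2-fold higher, at 136 and 348 CPM, beside 0.943% of 5831 genes higher, 3.12% lower and 4.06% in either direction. At 1.5-fold, 2 members passed beside 16.4% of genes. Of its 186 SM22-SmoM2 UMIs, 88 came from 1 cell, and without that cell the level was 191 CPM and no member passed 2-fold. In immune cells Igf1 and Igfbp4 were past 2-fold higher among 4 members with 50 UMIs, beside 2.39% of 2973 genes higher, 6.9% lower and 9.28% in either direction. Igfbp4 was at 221 and 807 CPM there, and the 10 highest SM22-SmoM2 immune cells held 88.1% of its UMIs. Immune cells differed in make-up, as cluster 5 held 38 of 91 control and 25 of 33 SM22-SmoM2 cells, and cluster 11 held 36 and 2. With both libraries pooled, Igf1 was at 233 CPM in cluster 5 and 90.9 CPM in cluster 11, and Igfbp4 at 299 and 357 CPM. The male share of immune cells with a sex call was 45.2% (control) and 91.3% (SM22-SmoM2). The part of make-up and sex in these ratios was not tested.

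The 7 fibroblast markers were all detected in these other lineages. Their summed CPM, as a share of that in the fibroblasts of the same library, was 10.4%, 9.88% and 10.3% in control Schwann, muscle and immune cells and 16.2%, 17.3% and 19.03% in SM22-SmoM2 cells. In endothelial cells this share was 2.09% and 3.43%. The summed CPM in fibroblasts themselves was 56804 in control and 33703 in SM22-SmoM2 cells. In Schwann, muscle and immune cells it was 5885, 5610 and 5857 in control and 5471, 5843 and 6415 in SM22-SmoM2 cells. The part of fibroblast RNA in the higher Igfbp3, Igfbp4 and Igf1 of these lineages was not tested.

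Of 33 other IGF pathway genes, 27 had 50 UMIs in fibroblasts. In that comparison 2 were past 2-fold higher, 2 past 2-fold lower and 23 were within 2-fold, with a median log2 ratio of -0.18, beside the 5.0% of all genes higher and 4.98% lower given above. Irs2, an adaptor that couples the receptor to PI3K, was at 8.33 CPM (6.89 to 9.97) in control against 40.7 CPM (37.2 to 44.4) in SM22-SmoM2 fibroblasts, a log2 ratio of 2.29 (2.0 to 2.59). Grb14, an adaptor that restrains insulin receptor signaling, was at 5.93 and 16.0 CPM, a log2 ratio of 1.43 (1.06 to 1.82). The related Grb10 was at 119 and 149 CPM, a log2 ratio of 0.32 (0.22 to 0.41).

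The 2 lower genes encode secreted serine proteases that can cut IGFBPs. Htra1 was at 1417 CPM (1397 to 1436) in control against 525 CPM (512 to 538) in SM22-SmoM2 fibroblasts, a log2 ratio of -1.43 (-1.47 to -1.39). Htra3 was at 564 CPM (551 to 576) and 119 CPM (113 to 125), a log2 ratio of -2.25 (-2.33 to -2.17). Pappa, the protease of IGFBP4, was at 9.46 and 5.60 CPM, a log2 ratio of -0.76 (-1.19 to -0.33), and Stc2, an inhibitor of PAPP-A, at 9.03 and 7.36 CPM, a log2 ratio of -0.29 (-0.70 to 0.10).

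Across sub-clusters, Htra1 was highest where Igfbp2 was, in sub-cluster 0, at 2809 CPM in control against 1469 CPM in SM22-SmoM2 cells. Htra3 was highest in control sub-clusters 3 and 14, at 1202 and 905 CPM. These held 176 and 108 control but 5 and 0 SM22-SmoM2 cells. In the shared sub-clusters 0, 4 and 5, Htra3 was at 288, 633 and 304 CPM in control cells. In SM22-SmoM2 cells it was at 175, 70.1 and 235 CPM there. Of the shared sub-clusters, only number 4 had Htra1 and Htra3 past 2-fold lower. Irs2 was highest in SM22-SmoM2 sub-clusters 7 and 8, at 111 and 77.3 CPM. In the SM22-SmoM2 split by Ptch1 UMIs, 5 of the 27 pathway genes were past 2-fold lower and none higher, beside 2.02% and 3.53% of all genes. Among them were Htra1, at -1.44 (-1.52 to -1.37), H19, at -1.18 (-1.27 to -1.09), and Stc2, at -1.49 (-2.15 to -0.86). The other two, Stc1 and Adam12, were named after their values had been seen.

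**Figure D4:**
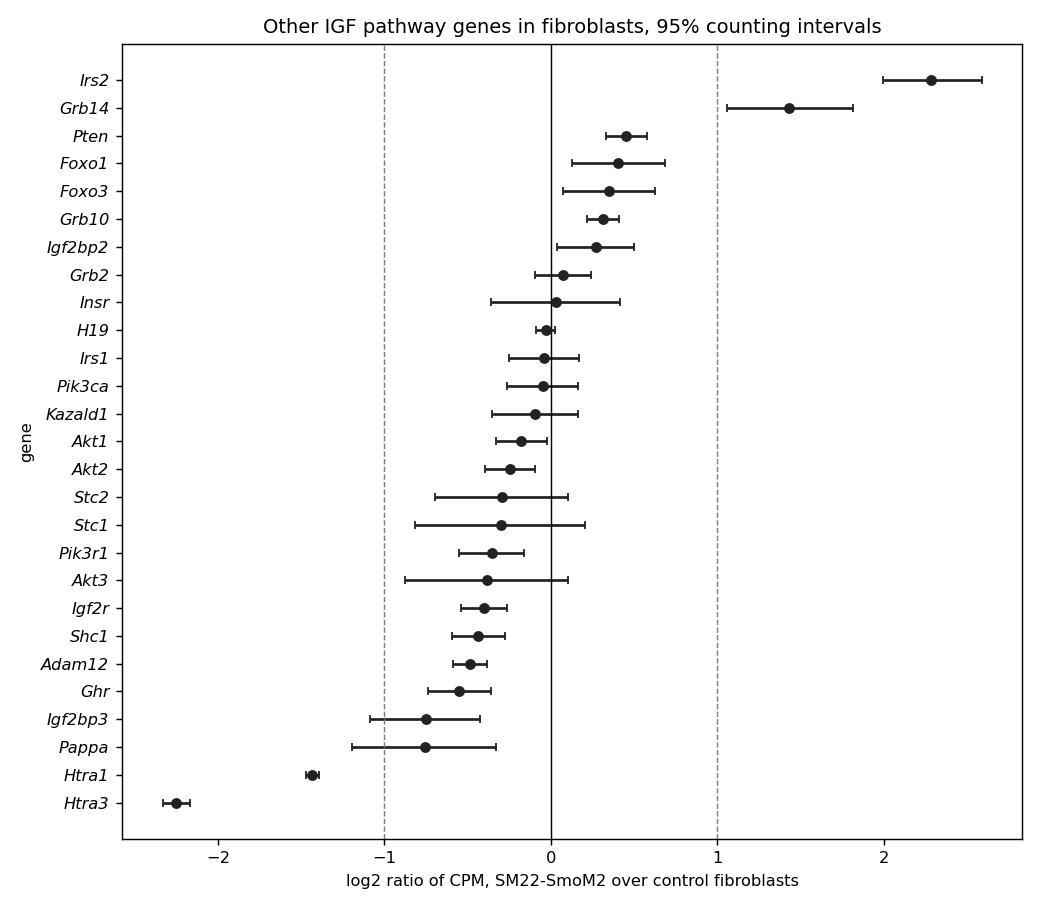
Log2 ratios of CPM between SM22-SmoM2 and control fibroblasts for the 27 other IGF pathway genes with at least 50 UMIs, with 95% counting intervals and dashed lines at 2-fold. Irs2 and Grb14 lie to the right at 2.29 and 1.43, and Htra1 and Htra3 to the left at -1.43 and -2.25.

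Over the 20 clusters of all cells, with both libraries pooled, the genes of the most similar pattern were found by Pearson r of log2(CPM + 10) among 9987 genes. For Igfbp4 they were Gpc3 (r = 0.89) and Hs6st2 (0.86), for Igfbp2 Megf6 (0.93), for Igfbp5 Loxl3 and Adamts2 (0.91 each), and for Igfbp6 Spon2 and Dcn (0.92 each). For Igf1 they were Lum (0.85) and Cpxm1 (0.84), for Igf1r Kmt2c (0.89) and Ddx17 (0.87), for Igfbp7 Utrn (0.89) and Rbms1 (0.88), and for Igfbp3 Rpap3 (0.76) and Deaf1 (0.74). Clusters of 1 library are not independent points, and Igf2 had too few UMIs to be compared.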

How the data were processed

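The authors sorted Tomato+ cells, made 10x Chromium v2 libraries and counted them with Cell Ranger on mm10 (GRCm38). Per the labels and values, the deposited matrices hold raw UMI counts, all whole numbers, for each gene in each cell. Tool versions, the annotation release and the strand setting are not given in the sources used here. The deposited barcode list covers the whole kit, so cells were taken by column and barcodes shared between libraries could not be counted.

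Cells with at least 200 genes and at most 10% mitochondrial UMIs were kept, which left out 22 control and 10 SM22-SmoM2 cells. Depth per cell ran from 3128 to 65167 and from 2538 to 38806 UMIs. K-means (50 starts; scanpy 1.11.5, scikit-learn 1.9.0) on 20 principal components of 2000 variable genes gave 20 clusters and 15 fibroblast sub-clusters, without the 49 IGF and Hh genes. A cluster took the lineage whose markers had the highest mean log2 CPM over the median of clusters (10 CPM added), with 3 markers at 10 CPM and 1.5 times that median. More than 6 of 12 Hh-active II markers made a cluster fibroblast, and a sub-cluster was mixed when its top 10 genes held at least 2 markers of another lineage and fewer of fibroblasts. These last 2 rules were set after clusters and member values had been seen.

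For each class of each library, a gene's UMIs were divided by those of all genes (CPM), with exact Poisson intervals for levels and exact conditional intervals for ratios (scipy 1.17.1). A count of 0 was taken as 3 UMIs, and then a ratio is only a bound. Cells are not replicates, so no test between conditions was made. The calculation was run on simulated counts with counting error only and known changes. This checks the arithmetic alone, since the simulation held no variation between cells, mice or libraries. Doublets were kept; Scrublet marked 5 control and 11 SM22-SmoM2 barcodes, too few to rely on. The genes named are the 9 members, pathway genes past 2-fold in fibroblasts together with Igf2r, Insr, Pappa, Stc2, Htra1, Grb10 and H19, the Hh genes of the split, and the 2 most similar genes per member with at least 500 UMIs, of which 1 is not reported here. The members and lists were chosen with earlier results of these data known. Of 27998 gene IDs, 27645 were found in the annotation. The alternatives changed the filter, clustering, doublets, scaling, depth, sex, thresholds and the call of Ptch1.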

Additional observations from a re-analysis of the deposited data

Results flagged for a closer look

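Some members moved in opposite directions in 2 classes of cells, each at least 1.5-fold and with counting intervals on opposite sides of 0. With 1 library per condition the differences between classes were not tested. Igf1 had a log2 ratio of SM22-SmoM2 over control of -0.96 in endothelial cells, 0.98 in Schwann cells (27 SM22-SmoM2 and 32 control UMIs) and 1.48 in immune cells. The immune cells differed in cluster make-up and male share between the libraries, and the endothelial cells in the level of lymphatic markers. Among fibroblast sub-clusters, Igf1 was at -0.59 in sub-cluster 0 and 1.27 in the cycling sub-cluster 4. Igfbp3 was at -0.59 in sub-cluster 0 and 1.62 in sub-cluster 4. Igfbp5 was at -1.10 in sub-cluster 0 and -0.62 in sub-cluster 4 but at 1.27 in sub-cluster 5. Igfbp6 was at -1.72 in sub-cluster 4 and 0.66 in sub-cluster 5.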

How the results depend on the processing

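No paired analysis was possible because each condition had 1 library. The count of 3 members past 2-fold in fibroblasts stayed within 1.5 times under 17 of 20 alternatives, but the members were not always Igf2, Igfbp3 and Igfbp4. With the mean of per-cell CPM Igfbp5 joined as lower. After thinning to 1500 UMIs the calls were Igfbp4 higher and Igfbp5 lower, in female cells Igfbp3 and Igfbp4 higher and Igfbp2 and Igfbp5 lower, and under the first naming rules Igf2 and Igfbp4 higher and Igfbp5 lower. It became 5 in male cells alone, 5 at a 1.5-fold threshold and 1 in the shared sub-clusters alone. In endothelial cells the count of 0 became 1 after thinning to 1500 UMIs, 1 in male cells, 1 in female cells and 1 at 1.5-fold, each lower, and stayed at 0 under the other 12. In Schwann cells the count of 2 became 1 after thinning to 1500 UMIs and 1 in female cells. It became 3, as Igf1 joined as higher, with at most 5% mitochondrial UMIs and with totals without mitochondrial and ribosomal genes. The same held with ratios centred on the median gene and at 1.5-fold. In muscle cells the count of 1 became 3 at K = 12, 2 with Leiden clustering, 0 with the mean of per-cell CPM, 0 after thinning to 1500 UMIs, 0 in male cells, 0 in female cells, 2 at a minimum of 20 UMIs, 2 at 1.5-fold, 3 under the first naming rules and 0 without the cell highest in Igfbp4. In the SM22-SmoM2 split by Ptch1 the count of 2 became 1 with the mean of per-cell CPM, 0 after thinning to 1500 UMIs, 1 with ratios centred on the median gene, 6 at 1.5-fold, 0 with a split by Gli1, 4 above the median depth, 0 at or below it, 0 with Ptch1 called at 3000 UMIs and 1 in the shared sub-clusters. In the control split the count of 2 became 5 after thinning to 1500 UMIs, with 23 cells that held a Ptch1 UMI. It also became 5 at 1.5-fold, 5 with a split by Gli1 and 5 with Ptch1 called at 3000 UMIs, with 42 such cells. Counts of 3 in either split, as in male cells and with at least 2 Ptch1 UMIs, lay within 1.5 times and are not all listed. Beyond the fewer cells, UMIs or looser threshold of an alternative, the cause of these changes was not tested. For most alternatives the share of all genes past the threshold is not given, so their counts are not a result about the members. Igfbp4 in fibroblasts ran from 1.41 (shared sub-clusters) to 2.67 (female cells) on the log2 scale, Igfbp2 from -2.73 to -0.04, and no member past 2-fold in fibroblasts changed sign. The shared sub-clusters, the first naming rules, the removal of fibroblasts with another lineage's markers, of the second Hh-active group and of the highest muscle cell were chosen after seeing the data. Depth limited Igf2 in every lineage, and only 4 members had 50 UMIs in immune cells and 6 in muscle cells.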
